A study of Mus musculus with 6 samples.

Results

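Neurexins and neuroligins are adhesion proteins that hold both sides of a synapse together. Neurexins (Nrxn genes) sit mainly in the presynaptic membrane, and neuroligins (Nlgn genes) sit in the postsynaptic membrane and bind them across the cleft. Both families are known for extensive alternative splicing, which changes the partners that a given protein can bind. The 5 genes described here are Nrxn2, Nrxn3, Nlgn1, Nlgn2 and Nlgn3. They were taken by gene symbol, 1 row each, from a table of 15705 genes, and all 5 had a score in all 6 libraries.

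RNA was sequenced from mouse cortical neurons infected with an N40K virus and from neurons infected with a control virus. The protein N40K, an N-terminal piece of U1-70K, derives from the U1 snRNP, the particle that pairs with the start of an intron when splicing begins. The series asks what a U1 snRNP fault linked to Alzheimer's disease does in neurons. The 3 N40K libraries came from C57BL/6 cortical neurons of embryonic day 18, cultured for 7 days and then exposed for 3 days to a lentivirus (FCK1.3GW) that carries N40K under a short CaMKII promoter. The 3 control libraries came from neurons of the same strain and age, exposed for the same time to the same lentiviral vector with EGFP. The CaMKII promoter is active mainly in excitatory neurons, and the cultures were measured whole. A change of a score within a cell type and a change in the mix of cells therefore cannot be told apart. Whether the replicates came from separate cultures is not stated in the labels. The p-values therefore cover the spread between these libraries, which may be technical.

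The deposited value is a splicing deficiency score, Sd, 1 per gene and library, on a linear scale where none is negative. In this field such scores weigh unspliced against spliced reads of a gene, and a higher score then means less complete splicing. The formula is not given in the sources used here, the read depth behind a score is unknown, and the score says nothing about how much RNA a gene makes. For that reason the labelled cell type could not be checked: 7 of 7 neuronal, 5 of 5 astrocyte, 3 of 5 oligodendrocyte and 3 of 5 microglial markers had a score, which is not a level. The median score of a library averaged 0.0154 ± 0.000854 in N40K neurons and 0.0132 ± 0.000458 in control neurons (SD, n = 3 each; exact permutation p = 0.1, 2-sided, the smallest that 20 assignments of 6 libraries allow). Over all genes 21.5% rose and 4.11% fell with N40K in limma's test, at a Benjamini-Hochberg adjusted p under 0.05.

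The family differs in the length of the introns that U1 has to mark. In the GENCODE M21 annotation Nrxn3 spans 1612.06 kb on chromosome 12 and Nlgn1 spans 906.25 kb on chromosome 3, at percentiles 99.94 and 99.55 of the length of matched genes. Nrxn2 spans 125.44 kb on chromosome 19, Nlgn3 spans 26.8 kb on chromosome X, and Nlgn2 spans 14.66 kb on chromosome 11, against a median of 25.45 kb. The longest intron of Nlgn1 takes up 52.15% of the gene. The last 24 bases of the exon before it are shown with the exon end in Nlgn2 and in Nlgn3 that shares the most bases with it, because this is one junction kept across the family with an intron of very different length behind it. The capitals mark the last 3 bases of the exon, which are the exon's side of the site that U1 pairs with. The sequences are from GENCODE M21 transcripts (GRCm38, sense strand, 5′ to 3′).
Nlgn1: tcaactatcggcttggggtacTTG
Nlgn2: tcaactaccgtcttggggtgcTCG
Nlgn3: tcaactatcgggtcggggtgcTAG
Nlgn2 and Nlgn3 each share 20 of the 24 bases with Nlgn1, where their next best exon ends share 8 and 10. The intron that follows is 472.56 kb long in Nlgn1, 0.16 kb in Nlgn2 and 6.22 kb in Nlgn3.

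The same was done for Nrxn3, whose longest intron spans 443.34 kb. The closest exon end in Nrxn2 precedes an intron of 11.42 kb.
Nrxn3: attctggaaaccagtgcaatgACC
Nrxn2: atggaggccctgtctgcaatgACC
Here 14 of 24 bases are shared, 2 more than with the next best exon end, so the match is less certain. Both end in ACC and not in the AG that closes 56.18% of 157506 exons before an intron in the matched genes. AG closes 14 of 19 such exons of Nrxn3 and 12 of 22 of Nrxn2, against 2 of 7 in Nlgn1, 3 of 7 in Nlgn2 and 3 of 6 in Nlgn3. These are letters of the annotation, and the score is 1 value for the whole gene, so it cannot be assigned to any one intron.

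Of the 5 genes 1 passed the test, Nlgn1, as a rise, where 21.5% of all genes rose. Its mean score with N40K was 2.15 times that of controls. Nrxn3 had a ratio of 1.81 and missed the threshold, and the scores of Nrxn2, Nlgn2 and Nlgn3 overlapped between the groups. By limma 0 of the 5 genes fell, and 0 did so at an unadjusted p under 0.05.

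Among the postsynaptic partners, Nlgn1 encodes the neuroligin best known from excitatory synapses. Its scores were 0.0014, 0.0022 and 0.002 in N40K neurons 1 to 3, against 0.0009, 0.0009 and 0.0008 in control neurons 1 to 3. Every N40K library was above every control library, a pattern that 33.6% of all genes showed, and N40K replicate 1 was the lowest of its group. The mean was 0.00187 ± 0.000416 with N40K and 0.000867 ± 5.77e-05 in controls (SD, n = 3 each), a ratio of 2.15. Scores are given to 4 decimals, and this rounding allows a ratio of means between 1.98 and 2.35. On the log2(score + 0.01) scale used for the test the change was 0.13 ± 0.03 (SE), with a limma adjusted p of 0.0202. That scale shrinks the change of a score so far under 0.01: without the added constant, a fit chosen after seeing the data, the fold was 2.12 with a 95% interval of 1.55 to 2.89 (adjusted p = 0.011).

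The call of Nlgn1 ended when N40K replicate 2 or 3 or any control library was left out, with limma adjusted p between 0.0504 and 0.0723, and held without N40K replicate 1 (0.00343). It also ended with the replicate number as a block (0.0542) and without a trend in limma's variance (0.0608). After centring each library on its median, a step that moves N40K scores down against controls by 0.13 on the log2(score + 0.01) scale, its change was -0.0039 (adjusted p = 0.928), and after centring on the median deviation of the library's genes it was 0.061 (0.11). Without the added constant and with the same centring on the median deviation, a fit also chosen after seeing the data, the fold was 1.88 (adjusted p = 0.0134), in a fit where 16.1% of all genes rose. By annotation Nlgn1 overlaps 4 other genes, 3 of them on the opposite strand and 0 with a score of their own, and Nlgn2 overlaps 0.

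Nlgn2 encodes the neuroligin of inhibitory synapses, which binds gephyrin. Its scores were 0.0051, 0.0056 and 0.0065 in N40K neurons 1 to 3, against 0.0064, 0.0061 and 0.0067 in control neurons 1 to 3. The groups overlapped, with the lowest scores in N40K replicates 1 and 2. The ratio of means was 0.896, and Nlgn2 did not pass (log2 change -0.06 ± 0.04 SE, limma adjusted p = 0.333); on the scale without a constant the 95% interval of the fold ran from 0.737 to 1.08. This result depended on scaling: relative to the other genes of the library Nlgn2 passed as a fall after centring on the library median (adjusted p = 0.00918) and after centring on the median deviation (0.0338). In these fits 18.4% and 9.67% of all genes fell.

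Nlgn3, on the X chromosome, encodes a neuroligin found at both excitatory and inhibitory synapses. It had the highest scores of the 5 genes, 0.0113, 0.0123 and 0.0127 in N40K neurons 1 to 3, against 0.0118, 0.0101 and 0.012 in control neurons 1 to 3. The groups overlapped, and control replicate 2 was the lowest of all. The ratio of means was 1.07, with a limma adjusted p of 0.542 and a 95% interval of the fold without a constant of 0.9 to 1.28. A change as large as that of Nlgn1 lies outside this interval and that of Nlgn2.

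On the presynaptic side, Nrxn3 scores were 0.0007, 0.0011 and 0.0011 in N40K neurons 1 to 3, against 0.0006, 0.0005 and 0.0005 in control neurons 1 to 3. The groups did not overlap, but N40K replicate 1 stood 1 step of the last decimal above the highest control. The mean was 0.000967 ± 0.000231 with N40K and 0.000533 ± 5.77e-05 in controls (SD, n = 3 each), a ratio of 1.81 that rounding places between 1.57 and 2.1. The log2 change was 0.06 ± 0.02 (SE), and the limma adjusted p of 0.053 missed the threshold. Nrxn3 passed with an added constant of 0.001 (adjusted p = 0.04), with no constant (0.032), with library weights (0.024) and without N40K replicate 1 (0.00567). In these 4 fits 22.3%, 22.4%, 24.4% and 23.7% of all genes rose. Its direction turned after centring on the library median (adjusted p = 0.0506) and on the median deviation (0.722). Without the added constant and centred on the median deviation, a fit chosen after seeing the data, Nrxn3 passed as a rise. The fold was 1.58 (limma adjusted p = 0.0416), in a fit where 16.1% of all genes rose.

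Nrxn2 scores were 0.0038, 0.0039 and 0.0042 in N40K neurons 1 to 3, against 0.0042, 0.0033 and 0.0041 in control neurons 1 to 3. The N40K scores lay within the range of the controls, whose replicate 2 was the lowest. The ratio of means was 1.03, with a limma adjusted p of 0.843 and a 95% interval of the fold without a constant of 0.842 to 1.26. After centring each library on its median Nrxn2 passed as a fall (adjusted p = 0.024), in a fit where 18.4% of all genes fell. Nrxn2 did not pass after quantile normalization (limma adjusted p = 0.0752) or centring on the median deviation, with the added constant (0.144) or without it (0.359). In GENCODE M21 it overlaps 2 other genes that also have a score, Gm14964 and Slc22a12, both on the opposite strand, and the sources used here do not say whether strand was used in counting.

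**Figure D1:**
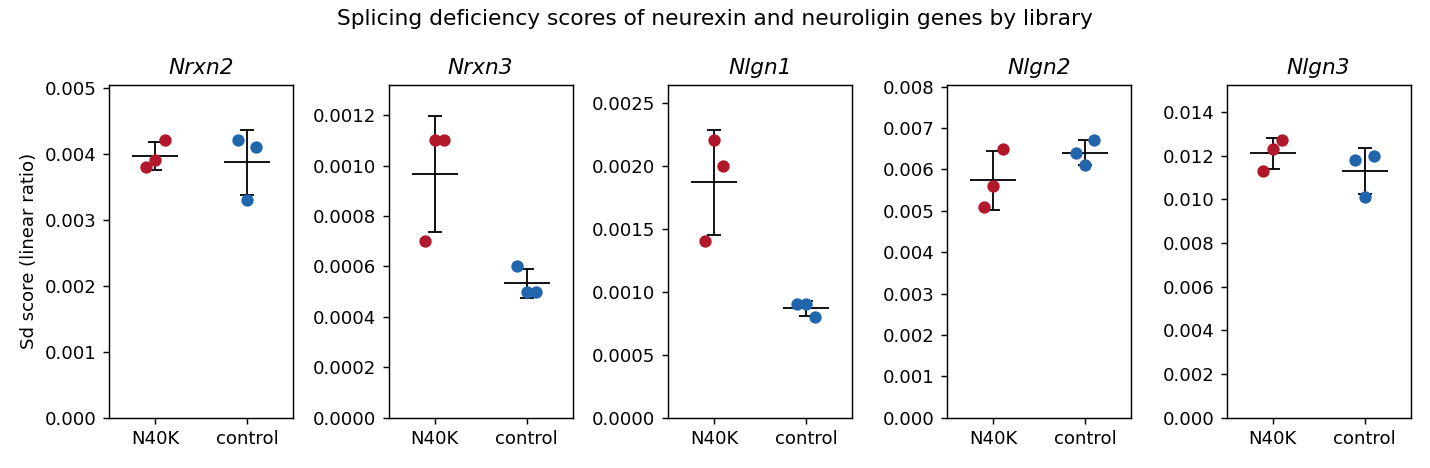
Sd score (linear ratio, each axis from 0) of each gene in the 3 N40K libraries (red, left) and the 3 control libraries (blue, right); points are libraries in the order of their replicate numbers, and bars are mean ± SD. The groups are apart for Nlgn1 (0.0014 to 0.0022 with N40K, 0.0008 to 0.0009 in controls) and for Nrxn3, and overlap for Nrxn2, Nlgn2 and Nlgn3.

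In order of mean control score the genes ran from Nrxn3 and Nlgn1 through Nrxn2 and Nlgn2 to Nlgn3, and no range of control scores overlapped that of the next gene. With N40K the order was the same, and each pair of neighbours was also apart. The mean control scores of Nrxn3 and Nlgn1 stood at percentiles 1.31 and 2.94 of all genes, against 21.8 for Nrxn2, 32.8 for Nlgn2 and 46.2 for Nlgn3. How the score treats gene length is not known, so the order of these levels is not an order of splicing quality between genes.

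Ratios of 2 scores from the same library do not change when a library is rescaled, so they compare family members directly. The Nlgn1 score was 0.275, 0.393 and 0.308 of the Nlgn2 score in N40K neurons 1 to 3, against 0.141, 0.148 and 0.119 in control neurons 1 to 3. The groups did not overlap, and the log2 difference was 1.25. The Nlgn1 score relative to that of Nlgn3 averaged 0.153 ± 0.0277 with N40K and 0.0773 ± 0.0113 in controls (SD, n = 3 each), a log2 difference of 0.98. The Nrxn3 score relative to that of Nrxn2 averaged 0.243 ± 0.0517 with N40K and 0.139 ± 0.0152 in controls (SD, n = 3 each), a log2 difference of 0.79. The Nlgn2 score relative to that of Nlgn3 was lower with N40K, at 0.473 ± 0.0338 with N40K and 0.568 ± 0.032 in controls (SD, n = 3 each), a log2 difference of -0.27. In all 4 pairs the groups were apart, with an exact permutation p of 0.1 for each, 0.1 also after adjustment over the 4 pairs, which is the smallest the design allows. For Nrxn3 relative to Nrxn2, rounding to 4 decimals leaves the separation unresolved, at 0.184 in N40K replicate 1 against 0.152 in control replicate 2. The pairs share genes and were chosen with the values of the genes known. Among single genes, the N40K scores all lay above the controls in 33.6% and below them in 8.67%. The share of all gene pairs that are apart was not counted, so the separation cannot be called particular to these pairs.

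**Figure D2:**
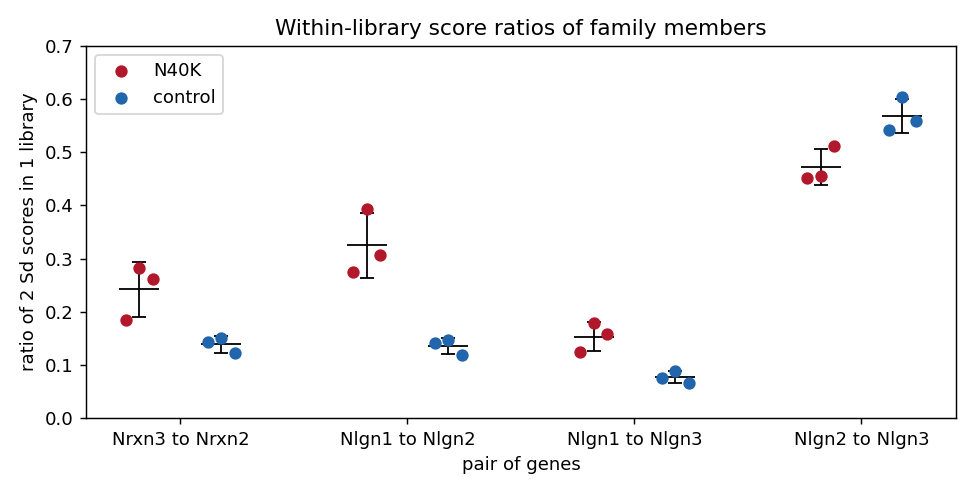
Ratio of the Sd scores of 2 genes in the same library (linear axis from 0) for 4 pairs, N40K in red on the left and control in blue on the right of each pair; points are libraries and bars are mean ± SD (n = 3). Nlgn1 relative to Nlgn2 lies between 0.275 and 0.393 with N40K and between 0.119 and 0.148 in controls, and Nlgn2 relative to Nlgn3 is the one pair with lower values in N40K neurons.

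Gene length moved with these differences. Of the 204 genes over 500 kb, the class of Nlgn1 and Nrxn3, 49.0% rose and 0.490% fell with N40K, and their median ratio was 1.67 with quartiles of 1.33 and 2.08. Of the 2092 genes over 100 and up to 500 kb, the class of Nrxn2, 43.3% rose and 1.48% fell, with a median ratio of 1.4. In the class over 30 and up to 100 kb, which holds none of the members, 30.9% rose and 2.70% fell. Of the 8238 genes up to 30 kb, the class of Nlgn2 and Nlgn3, 10.9% rose and 5.47% fell, with a median ratio of 1.03. The ratio of Nlgn1 was near the upper quartile of its length class, which lies inside the range that rounding allows for it, and that of Nrxn3 was near the median of the class. Nrxn2 was below the lower quartile of its class, 1.13. Nlgn2, at 0.896, was near the lower quartile of 0.904, which rounding also does not separate from it, and Nlgn3 lay within the quartiles. Across 14911 genes the Spearman rho of length with the ratio was 0.39, and genes are not independent replicates. Low scores moved with it too: among the 616 genes with a mean control score up to 0.001, which include Nlgn1 and Nrxn3, 39.1% rose, and in 56.7% the N40K scores all lay above the controls. The part of length and score level in the results of the members was not tested, and the length classes were set after seeing the data.

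**Figure D3:**
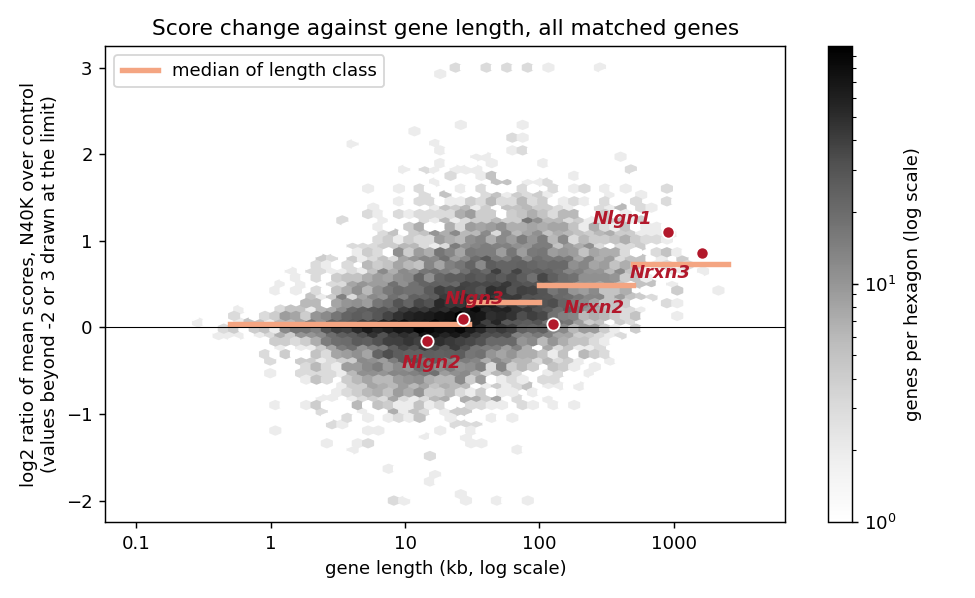
Log2 ratio of mean scores, N40K over control, against gene length (kb, log axis) for 14911 genes; grey hexagons count genes, the orange lines are medians of 4 length classes and the red points are the 5 genes. Nlgn1 and Nrxn3 lie at the far right above the line of no change, and Nrxn2 lies below the median of its class, a ratio of 1.4.

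Genes whose products bind, cleave or splice-regulate neurexins and neuroligins, and other synaptic adhesion genes, were followed in 5 lists of 104 genes, of which 98 had a score. Of these, 36 rose, 2 fell and 60 did not pass, so 36.7% rose against 21.5% of all genes. The median log2 change was 0.06 in these lists and 0.06 over all genes, and the median ratio was 1.34 against 1.11. The log2 changes are not alike in scale, because the added constant of 0.01 shrinks changes more at low scores. The median control score was 0.00272 in these lists and 0.0133 over all genes. The number of rises was 21 without control replicate 1, 16 without control replicate 2 and 16 without control replicate 3, in fits where 12.9%, 10.3% and 10.4% of all genes rose. After centring on the library median 11 rose and 30 fell, where 9.75% and 18.4% of all genes did. These counts depended on the added constant. Without it and centred on the median deviation, a fit chosen after seeing the data, 34 rose and 8 fell. In that fit 16.1% of all genes rose and 8.98% fell. Of the 92 with a known length, 10 of 18 partner genes over 500 kb rose (55.6%, against 49.0% of all genes of that length), as did 12 of 29 over 100 and up to 500 kb (41.4% against 43.3%). In the shorter classes 5 of 24 over 30 and up to 100 kb rose (20.8% against 30.9%), and 5 of 21 up to 30 kb (23.8% against 10.9%).

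Of 17 scored ligands that meet neurexins in the cleft 1 rose and 2 fell, or 5.88% and 11.8%, against 21.5% and 4.11% of all genes. Their median ratio was 1.23. After centring on the library median falls were called in each of the 5 lists, 9 of them among these ligands. In that fit 18.4% of all genes fell. Centring on the library median shifts log2(score + 0.01), where the constant shrinks changes of low scores. Centred on the median deviation, 3 ligands fell, with or without the added constant. Lrrtm1, a postsynaptic leucine-rich repeat protein that binds neurexins, scored 0.0109, 0.0094 and 0.0125 in N40K neurons 1 to 3, against 0.027, 0.0316 and 0.0307 in control neurons 1 to 3. All N40K scores were below all controls, a pattern seen in 8.67% of all genes, and the fall to a ratio of 0.367 (limma adjusted p = 0.00279) held in every alternative in which Lrrtm1 was fitted. Its relative Lrrtm3 went the other way, with 0.0079, 0.0109 and 0.0085 in N40K neurons against 0.0033, 0.0038 and 0.0031 in control neurons (ratio 2.68, adjusted p = 0.00524). Lrrtm3 also held in every alternative in which it was fitted. The neurexophilin gene Nxph3, whose protein binds alpha-neurexins, fell to a ratio of 0.693 (adjusted p = 0.0232). Leaving out N40K replicate 1 or 2, or control replicate 1 or 2, ended this call (highest adjusted p = 0.0663). So did the replicate number as a block (limma adjusted p = 0.0651). Cbln1, a secreted bridge between neurexins and delta glutamate receptors, scored 0.0099, 0.012 and 0.0077 with N40K against 0.0145, 0.0157 and 0.0234 in controls and did not pass (0.0582).

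Among 19 intracellular adaptors and scaffolds 9 rose and 0 fell by limma, also 0 at an unadjusted p under 0.05. The rises make up 47.4%, against 21.5% of all genes, and 4.11% of all genes fell. The median ratio of the list was 1.38. Magi3, a membrane-associated guanylate kinase scaffold, scored 0.0047, 0.0055 and 0.0063 with N40K against 0.0027, 0.0021 and 0.0024 in controls, a ratio of 2.29 (limma adjusted p = 0.00593). Lin7c, of the complex that ties neurexin through Cask to the presynaptic cytoskeleton, rose 1.81-fold (0.00639). Dlg1, which encodes SAP97, rose 1.53-fold (0.00688), and the endosomal sorting gene Snx27 rose 1.56-fold (0.0119). Their direction turned after centring on the library median (adjusted p = 0.604 for Dlg1 and 0.247 for Snx27). Centred on the median deviation with the added constant, neither passed (limma adjusted p = 0.0537 for Dlg1 and 0.524 for Snx27). The call of Snx27 also ended after quantile normalization (0.132) and without a trend in limma's variance (0.0789). Without the added constant and centred on the median deviation, a fit chosen after seeing the data, both passed as rises. The limma adjusted p was 0.00838 for Dlg1 and 0.0254 for Snx27. Dlg4, whose product PSD-95 binds Nlgn1, had a ratio of 1.01 and did not pass (adjusted p = 0.948), nor did Gphn, the gephyrin gene, at 1.04 (0.803).

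Of 10 modulators of neuroligins and shedding enzymes 5 rose (50%, against 21.5% of all genes). By limma 0 fell, or 1 at an unadjusted p under 0.05, where 4.11% of all genes fell by adjusted p. Adam10, a sheddase of Nlgn1, rose 2.59-fold (limma adjusted p = 0.00687), a call that ended after centring on the library median (adjusted p = 0.119). The call held after centring on the median deviation, with the added constant (0.0114) and without it (0.00333). Mdga1, which blocks the binding of neuroligins to neurexins, rose 2.01-fold (0.0122), though not with control replicate 3 left out (0.0508). The rise of Sparcl1, which encodes the astrocyte protein hevin, had a ratio of 1.42 and ended without any one of the control libraries (highest adjusted p = 0.0593). It also ended with the replicate number as a block (limma adjusted p = 0.0627), without a trend in limma's variance (0.146) and after quantile normalization (0.307). The direction turned after centring on the library median (0.0845) and on the median deviation (0.794). Without the added constant and centred on the median deviation, a fit chosen after seeing the data, Sparcl1 passed as a rise (0.0223).

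Of 41 other adhesion genes of the synapse 19 rose and 0 fell by limma, also 0 at an unadjusted p under 0.05. The rises make up 46.3%, against 21.5% of all genes, and 4.11% of all genes fell. The median ratio of the list was 1.58. Lrfn2, a postsynaptic adhesion protein that binds PSD-95, scored 0.0137, 0.0158 and 0.0135 with N40K against 0.0034, 0.003 and 0.003 in controls, a ratio of 4.57 (limma adjusted p = 0.00122). Lrrc4, the netrin-G ligand 2, rose 2.49-fold (0.00231), and Ntng2, the netrin-G that binds it, rose 1.77-fold (0.00886). The teneurin gene Odz1 rose 2-fold (0.0103), but turned after centring on the library median (0.259). The call of Odz1 also ended with the replicate number as a block (limma adjusted p = 0.053) and without a trend in limma's variance (0.0684). Centred on the median deviation, Odz1 did not pass with the added constant (limma adjusted p = 0.245). Without the constant, a fit chosen after seeing the data, it passed as a rise (0.0088). Lin7c, Magi3, Lrfn2, Lrrc4 and Ntng2 kept their call in every alternative in which they were fitted, as did Ptbp2. Of these 6 genes, Lin7c was the one fitted when genes that overlap another were left out, and Lrrtm1 and Lrrtm3 were not fitted there either.

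Among 11 regulators of neurexin and neuroligin exons 2 rose and 0 fell by limma, also 0 at an unadjusted p under 0.05. The rises make up 18.2%, near the 21.5% of all genes, and 4.11% of all genes fell. Ptbp2, a neuronal splicing repressor, rose 2.56-fold (limma adjusted p = 0.00302), and Srrm4, a neuronal activator of microexons, rose 1.39-fold (0.0181). The call of Srrm4 ended without control replicate 1 or 2 (highest adjusted p = 0.0641), after centring on the library median (0.0619), after quantile normalization (0.0855, with a log2 change of 0.16 against 0.30) and with the replicate number as a block (0.0521). Khdrbs1, Khdrbs2 and Khdrbs3, which encode SAM68, SLM1 and SLM2, regulators of the neurexin exon at splice site 4, did not pass, with ratios of 1.01, 1.15 and 1.

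**Figure D4:**
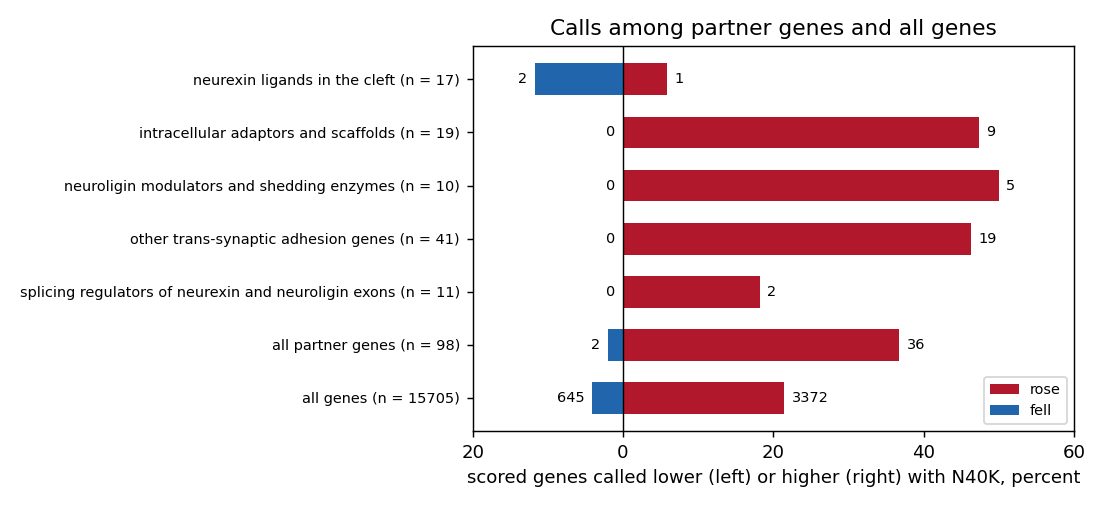
Percent of scored genes that rose (red, right) or fell (blue, left) with N40K at a limma adjusted p under 0.05, for 5 lists of partner genes, for these lists together and for all genes; the numbers beside the bars are counts of genes. Rises reach 46.3% to 50% in 3 lists, against 21.5% of all genes. The lists are not matched for gene length: 43.3% of all genes over 100 and up to 500 kb rose, and 49.0% of those over 500 kb. The part of length in the lists was not tested. The 2 falls called on unscaled scores are of neurexin ligands, while after centring on the library median each list has falls.

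The partner genes whose course over the 6 libraries was most like that of a member were picked by the root mean square difference of log2(score / mean control score), among the 80 partner genes whose mean score reached 0.001. Bai3, an adhesion receptor of synapses, was nearest to Nlgn1, at 0.092 (log2), with 0.0012, 0.0017 and 0.0019 in N40K neurons against 0.0008, 0.0008 and 0.0007 in control neurons, and the teneurin gene Odz3 followed at 0.13. Mdga2, a binder of neuroligins, was nearest to Nrxn3, at 0.045, with 0.0018, 0.003 and 0.0029 in N40K neurons against 0.0015, 0.0013 and 0.0013 in control neurons, followed by the neurotrophin receptor gene Ntrk3 at 0.068. Shank3, a postsynaptic scaffold, was nearest to both Nlgn3 (0.052) and Nrxn2 (0.076), with a ratio of 1.04. Next came Lrrc4b for Nlgn3 (0.064) and Khdrbs1 for Nrxn2 (0.088). Nlgn2 was nearest to the splicing regulator gene Rbfox2 (0.049), with a ratio of 0.887, and to Cadm1 (0.053), with 0.914.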

How the data were processed

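The authors deposited a table of 1 Sd score per gene and library, which behaves as a linear ratio: no value is negative and all have 4 decimals. Per the submitters' processing notes, bedtools 2.16.1, BWA, STAR and CASAVA were used on build mm9, in no given role or order. Columns were matched to libraries by name, and 0 value columns were unused. The test was limma 3.58.1 (R 4.3.3; lmFit and trended eBayes), 2-sided, on log2(score + 0.01). P-values were adjusted by Benjamini-Hochberg across the 15705 genes, and those under 0.05 were called. The filter, a score above 0 in at least 3 libraries, removed no gene. "Rose" and "fell" refer to scores without scaling between libraries.

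Members and lists were chosen with earlier results of these data known. Named partner genes were, per list, up to 4 called genes with the smallest p whose groups did not overlap, and 2 nearest genes per member; Cbln1, Dlg4, Gphn, Khdrbs2 and Khdrbs3 were named after their values were seen. One gene that this rule names is not reported here. Lengths, introns and transcripts came from GENCODE M21 (GRCm38, not mm9), matched for 14911 genes (94.9%) by Ensembl identifier, so no coordinates are given. The protein-coding transcript of widest span stands for each gene. Of the matched genes 8829 overlap another, among them Nrxn2, Nrxn3, Nlgn1 and Nlgn3.

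The fit was tested on data simulated for N40K against control, with a change in 200 of 15705 genes. It called 24% of those with a log2 change of 0.25, 56% of those with 0.5, 72% of those with 1 and 98% of those with 2. Of 15505 genes simulated without a change, 6 were called. These rates were not split by score level, so they do not apply to scores as low as those of Nlgn1 and Nrxn3. The simulation also changed far fewer genes than the 21.5% that rose in the data.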

Additional observations from a re-analysis of the deposited data

How the results depend on the processing

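Alternatives set beforehand were added constants of 0.001 and 0.1, none (for mean scores from 0.002), a stricter filter without the lowest 25% of genes, no filter, 3 scalings, the replicate block, untrended eBayes, library weights and each library left out; fits without a constant on all genes, alone or centred, and without overlapping genes were chosen after seeing the data. The depth behind a score is unknown, and the last decimal limits Nrxn3 and Nlgn1. The cause of the changes listed here was not tested.

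Values are log2 changes. Centring on the library median gave -0.12 for Nrxn2, -0.072 for Nrxn3, -0.0039 for Nlgn1, -0.19 for Nlgn2 and -0.076 for Nlgn3. Centring on the median deviation gave -0.055, -0.0075, 0.061, -0.13 and -0.012 in the same order. Quantile normalization gave -0.071 for Nrxn2, -0.16 for Nlgn2, a fall that passed (limma adjusted p = 0.0134), and -0.075 for Nlgn3. Without a constant, centred on the median deviation, values were -0.13 for Nrxn2, 0.66 for Nrxn3, -0.33 for Nlgn2 and -0.068 for Nlgn3. In that fit Nrxn3 passed as a rise (limma adjusted p = 0.0416) and Nlgn2 as a fall (0.0386). Nrxn3 passed at 0.35 with a constant of 0.001, at 0.063 with library weights and at 0.83 without a constant. Nlgn1, at 0.13, missed the threshold under the replicate block (limma adjusted p = 0.0542) and with untrended eBayes (0.0608). With a library left out, Nlgn1 ranged from 0.11 to 0.16, Nrxn3 from 0.049 to 0.076, Nrxn2 from -0.019 (without control replicate 2) to 0.028, Nlgn2 from -0.095 (without N40K replicate 3) to -0.032 (without N40K replicate 1) and Nlgn3 from 0.013 (without control replicate 2) to 0.080 (without N40K replicate 1).

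The count of members that rose, 1 of 5, was 2 with a constant of 0.001, with library weights, and without a constant on all genes, centred or not. It was 0 after centring on the library median or the median deviation, under the replicate block, with untrended eBayes, without a constant for mean scores from 0.002 (3 members left), under the stricter filter (2 left) and without overlapping genes (1 left). It was 0 to 2 with a library left out. The count that fell was 2 after centring on the library median and 1 after centring on the median deviation, with or without a constant, and after quantile normalization.

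Partner genes that rose numbered 11 after centring on the library median, 17 after centring on the median deviation and under the replicate block, 20 with untrended eBayes and without a constant for mean scores from 0.002 (57 left), 12 under the stricter filter (42 left), 5 without overlapping genes (23 left) and 16 to 47 with a library left out. Those that fell numbered 30, 10 and 13 after the 3 scalings in the order given, 8 after centring without a constant, 1 under the replicate block and without overlapping genes, and 1 to 3 with a library left out. Of the called partner genes named per list, centring on the library median turned Dlg1 (-0.017), Snx27 (-0.047), Sparcl1 (-0.071) and Odz1 (-0.039). Of the genes nearest to a member it turned Bai3 (-0.023), Odz3 (-0.021), Ntrk3 (-0.0065), Shank3 (-0.097), Lrrc4b (-0.10) and Khdrbs1 (-0.13, a fall that passed, adjusted p = 0.0242). Centring on the median deviation turned Sparcl1 (-0.0061), Shank3 (-0.033), Khdrbs1 (-0.063) and Lrrc4b (-0.036). Without a constant and centred on the median deviation, Dlg1 was 0.44, Snx27 0.47, Sparcl1 0.34, Odz1 0.83, Bai3 0.87, Odz3 1.07 and Ntrk3 0.59. Shank3 (-0.11), Lrrc4b (-0.072) and Khdrbs1 (-0.17) stayed turned in that fit.

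Over all genes, rises and falls numbered 1531 and 2883 after centring on the library median, 2235 and 1518 on the median deviation, 2022 and 1883 after quantile normalization, 1770 and 328 under the replicate block, 963 and 219 without overlapping genes, and 1613 to 3729 and 303 to 486 with a library left out. Rises numbered 1969 under the stricter filter, and falls 1410 after centring without a constant. Same-numbered libraries of the groups did not deviate together (correlations of -0.071, 0.038 and -0.02), so the numbers were not taken to pair them.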
